A study of Caenorhabditis elegans with 60 samples.

Results

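The small RNAs of whole *C. elegans* were compared between the last larval stage (L4) and the 1-day-old adult, in the input libraries, which are lysate sampled before any immunoprecipitation (IP). The members are the 8 libraries labelled as CSR-1B or CSR-1A+B input at either stage, out of 60 libraries in the series, with 4 at L4 and 4 in adults. Both stages hold the same strains, with 2 libraries per strain and stage. The CSR-1B strain lacks CSR-1A, through the allele *csr-1a(cmp135)*, and carries a FLAG tag on CSR-1B, as *csr-1b(cmp167[2xFLAG::csr-1])*. The CSR-1A+B strain, *csr-1b(cmp166[2xFLAG::csr-1])*, carries the tag on both isoforms. The animals had no treatment, grew at 20 °C on *E. coli* OP50, and were collected at 48 h (L4) or 68 h (adult). No untagged animals are in the comparison. RNA of 18 to 30 nt was treated with a 5′ polyphosphatase, which allows small RNAs with a 5′ triphosphate to be ligated, and sequenced. Each library is a pool of many whole hermaphrodites, so germline and soma are mixed, and fewer cells of a type and less small RNA per cell cannot be told apart. The *csr-1* counts cover both isoforms and do not check the strain labels.

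Most worm small RNAs with a 5′ triphosphate are 22G-RNAs, which RNA-dependent RNA polymerases make antisense to a transcript and which Argonautes such as CSR-1 and the WAGO proteins bind. A gene's count is thus read here as the small RNAs aimed at it, though the counting did not separate the strands. Another class, the 26G-RNAs, precedes some 22G-RNAs, and the Argonautes ALG-3 and ALG-4 carry those of the sperm-producing germline. Hermaphrodites make sperm during L4 and then switch to oocytes, while the soma completes the last molt and the adult intestine begins to make yolk.

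The L4 libraries held 5343284 to 10413430 counts on 31106 genes, and the adult libraries 6988870 to 8225048. Of 14765 genes with enough counts to test, small RNAs rose for 3830 (25.9%) and fell for 4354 (29.5%) in adults, by edgeR's quasi-likelihood test with strain as a covariate, where a call needs an adjusted p no higher than 0.05 and at least a 2-fold change. The 4 adult and 4 L4 libraries did not overlap for 3786 of the genes that rose and 4189 of those that fell. These genes were called on the same libraries, so the lack of overlap follows largely from the call and adds no evidence. The first principal component held 89.6% of the variance and separated the stages, with the L4 libraries between -81.55 and -68.04 and the adult libraries between 67.09 and 82.45. The labels do not say that the 2 libraries of a group were separate cultures, so p-values measure only the spread between these libraries, which may be technical. The labels give only the strain and stage that separate these libraries, and no batch or date. Values are CPM, the counts scaled to each library's total and by edgeR's TMM factors, and a change is adult against L4 on the log2 scale, with its standard error (SE). The share of counts on rRNA genes was low in CSR-1B L4 replicate 2 (6.02%) and in CSR-1B adult replicate 1 (9.74%), against 12.9% to 17.4% in the other 6 libraries.

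The median change over all genes tested was -0.19, and it depends on the scaling. Relative to TMM, every change moved up by about 0.12 with DESeq2's size factors, 0.53 with the total count on genes and 0.895 with the reads mapped to the genome. The TMM factors were 0.807 to 0.871 at L4 and 1.15 to 1.26 in adults, and genes took 42.8% to 47.5% of mapped reads at L4 and 56.7% to 60.3% in adults. The genes that rose made up 46.8%, 52.5%, 69.8% and 82.7% of all calls in that order of scalings. All 3830 higher calls and 1405 of the 4354 lower calls held under all 4 scalings, and no gene was called in the opposite direction under any of them. The 3 other scalings shift all genes up by about the same amount, so the higher calls could not be lost to them, and only the lower calls were put to a test.

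**Figure D1:**
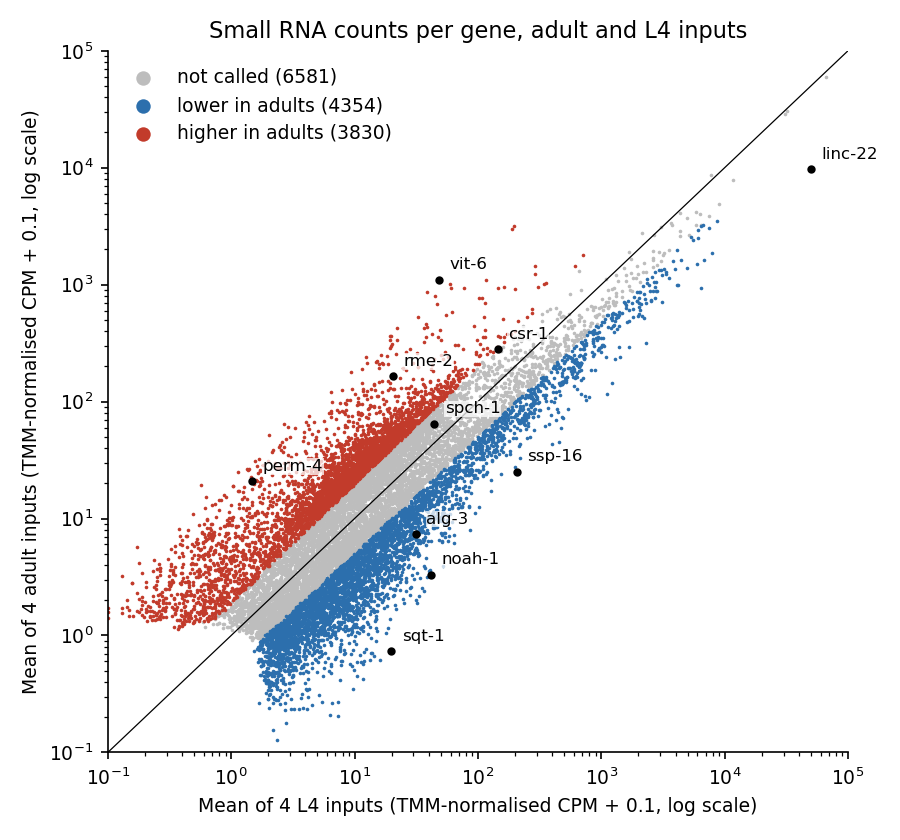
Mean small RNA level of each of the 14765 genes tested in the 4 adult inputs (vertical) against the 4 L4 inputs (horizontal), as TMM-normalised CPM plus 0.1 on log axes, where a point is a gene and the line marks equal levels. The 3830 genes that rose lie above the line, with *vit-6* far from it, and the 4354 that fell lie below it, with *sqt-1* and *linc-22* far from it.

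The loci that carry the main patterns are shown by the sense strand that a 22G-RNA would pair with, from the RefSeq genome of build WBcel235. Cytosines are in capitals, since a 22G-RNA begins with G and so starts opposite a C. The first 90 bases of the coding sequence are given for *vit-6* (chrIV:8261173-8261262, plus strand), *sqt-1* (chrII:11337660-11337749, minus strand) and *spch-1* (chrIV:10111421-10111510, minus strand), and the first 90 exonic bases for *linc-22* (chrX:9069138-9069227, plus strand).
vit-6: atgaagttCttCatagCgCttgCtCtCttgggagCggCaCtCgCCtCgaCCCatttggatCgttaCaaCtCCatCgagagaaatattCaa
sqt-1: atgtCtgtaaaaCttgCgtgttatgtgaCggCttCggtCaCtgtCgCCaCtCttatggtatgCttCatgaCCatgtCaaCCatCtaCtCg
spch-1: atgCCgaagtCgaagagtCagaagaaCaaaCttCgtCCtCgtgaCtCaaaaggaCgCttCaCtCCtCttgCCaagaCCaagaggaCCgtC
linc-22: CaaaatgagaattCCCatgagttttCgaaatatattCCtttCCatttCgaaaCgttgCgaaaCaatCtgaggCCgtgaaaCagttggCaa
Cytosine made up 28.1% of the sense exons of *vit-6*, 25.4% of *sqt-1*, 28.9% of *spch-1* and 18.2% of *linc-22*, so the abundant *linc-22* was the poorest of these in such start positions.

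Small RNAs of all 6 vitellogenin genes, which encode yolk proteins, rose, with changes between 4.08 and 4.51 and a median of 4.22. Small RNAs of *vit-6* were at 75.7, 43.6, 35.1 and 39.2 CPM in the L4 libraries (CSR-1B replicates 1 and 2, then CSR-1A+B replicates 1 and 2, the order used throughout) and at 898.7, 1055, 1117 and 1327 CPM in the adult libraries. Every adult library was more than 10 times above every L4 library. The change was 4.51 (SE 0.23, edgeR adjusted p = 6.85e-09). Small RNAs of *vit-2* went from 59.4, 31.97, 29.3 and 33.6 CPM to 693.1, 840, 892.9 and 1027 CPM, a change of 4.47 (SE 0.22, edgeR adjusted p = 5.61e-09). In both genes CSR-1B L4 replicate 1 was the highest L4 library and CSR-1B adult replicate 1 the lowest adult library. Reads of the near-identical *vit-3*, *vit-4* and *vit-5* may be split among them, so their single values are uncertain. Together the 6 genes took 0.00931% to 0.0224% of the counts at L4 and 0.342% to 0.503% in adults.

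Genes of the oocyte and the early embryo changed in the same direction. Of 49 tested, small RNAs rose for 34 (69.4%) and fell for 1 (2.04%), beside 25.9% and 29.5% of all genes, with a median of 1.54. Small RNAs of *rme-2*, the yolk receptor of oocytes, were at 20.5, 20.9, 20.2 and 19.5 CPM at L4 and 157.4, 160.1, 174.2 and 168.5 CPM in adults. The spread within each stage was small beside the change of 3.02 (SE 0.08, edgeR adjusted p = 1.38e-10). Small RNAs of *egg-5*, which acts at the surface of the egg at fertilization, were at 20.7, 24.7, 17.3 and 21.03 CPM at L4 and 148.3, 156.2, 168.8 and 158.7 CPM in adults, a change of 2.92 (SE 0.10). Small RNAs of *puf-5*, an RNA-binding protein of oogenesis, changed by 2.92 (SE 0.11) and those of *perm-4*, an eggshell permeability barrier gene, by 3.83 (SE 0.19). The 1 gene that fell was *puf-9*, a PUF protein known from larval somatic timing, from 91.9, 89.2, 116.5 and 111.0 CPM to 40.7, 43.4, 48.2 and 48.2 CPM, and this call was lost when the total count or the mapped reads set the scale.

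Of 18 genes of the meiotic axis and synapsis, small RNAs rose for 10 (55.6%) and fell for none, beside 25.9% and 29.5% of all genes. All 18 changes were above 0, between 0.42 and 1.87. The number that rose was 16, 17 and 18 with DESeq2's size factors, the total count and the mapped reads. Small RNAs of *syp-1*, of the central region of the synaptonemal complex, were at 7.64, 13.2, 10.5 and 9.17 CPM at L4 and 33.1, 39.2, 38.2 and 35.3 CPM in adults, the largest change of the list at 1.87 (SE 0.14, edgeR adjusted p = 1.5e-07). Those of *syp-4* and *syp-3*, of the same structure, changed by 1.55 (SE 0.10) and 1.43 (SE 0.16), and those of *coh-4*, a meiotic cohesin subunit, by 1.49 (SE 0.11). The groups of libraries did not overlap for any of these 4 genes, which were chosen as the largest called changes of the list, so this adds no evidence.

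Of 14 sex determination genes tested, small RNAs rose for 5 (35.7%) and fell for 2 (14.3%), beside 25.9% and 29.5% of all genes. Small RNAs of *tra-2*, the membrane receptor that promotes female fate, were at 12.7, 13.2, 15.1 and 13.9 CPM at L4 and 65.4, 56.8, 67.9 and 65.3 CPM in adults, a change of 2.22 (SE 0.08, edgeR adjusted p = 1e-09). Those of *fem-1*, which promotes male fate and sperm, were nearly the same, at 13.5, 11.3, 13.02 and 13.7 CPM and then 57.6, 55.3, 60.1 and 59.0 CPM. Both genes were higher in every adult library. Small RNAs of *fem-2*, *xol-1*, the early switch of sex, and *her-1*, the male signal, changed by 1.36, 1.15 and 1.15, the last at only 0.683 CPM at L4 and 1.504 CPM in adults. The genes that fell were *fog-3*, needed for sperm fate, with a change of -2.88 (from a mean of 4.61 ± 0.83 to 0.618 ± 0.219 CPM, SD, n = 4), and *tra-3*, a calpain protease that acts on TRA-2, with a change of -1.41, a call lost at -0.87 under the total count and -0.51 under the mapped reads.

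**Figure D2:**
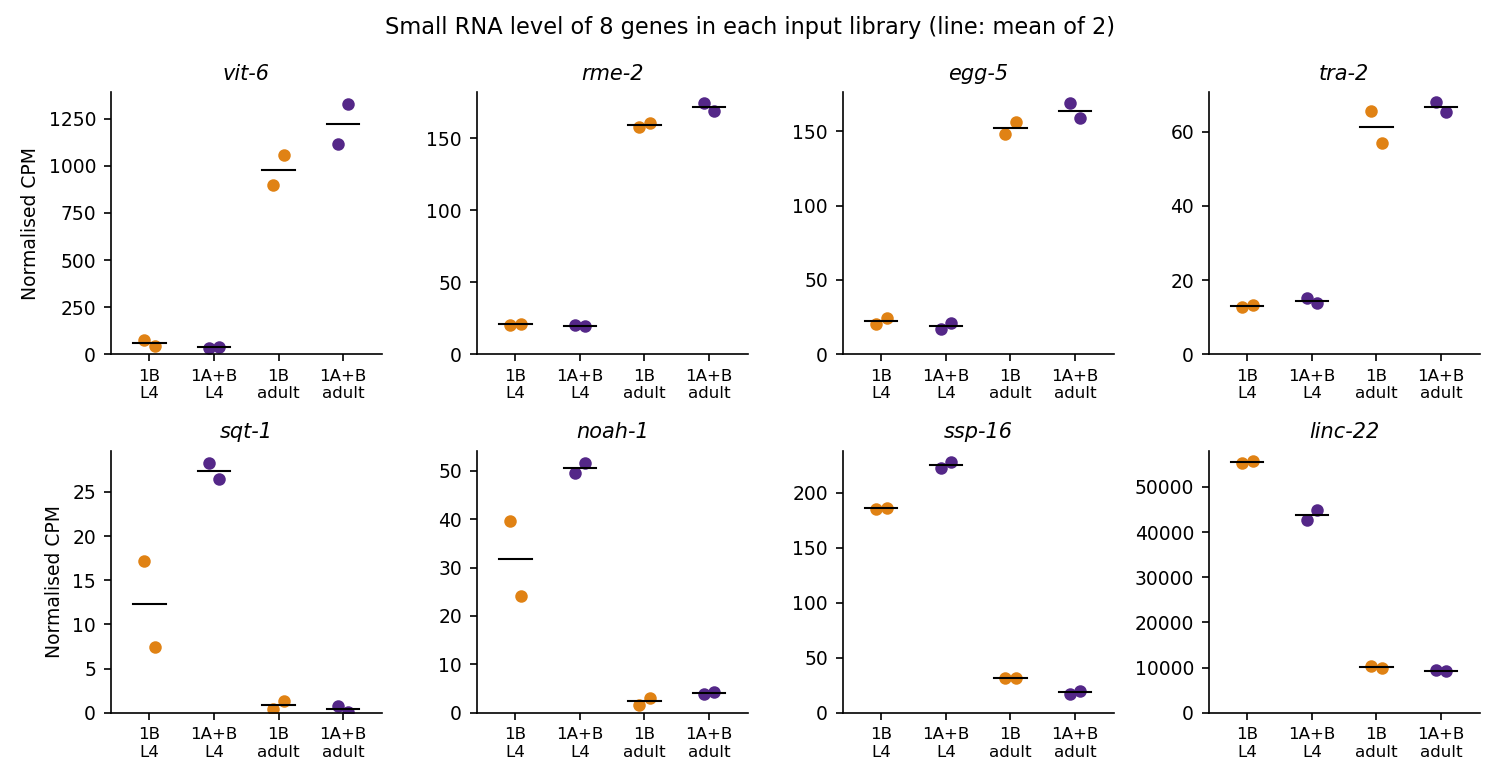
Small RNA level (TMM-normalised CPM, linear axes from 0) of 8 genes in each of the 8 input libraries, by strain (1B for CSR-1B, 1A+B for CSR-1A+B) and stage, where a point is a library and a line the mean of 2. The yolk and oocyte genes *vit-6*, *rme-2* and *egg-5* and the sex determination gene *tra-2* are higher in every adult library, and *sqt-1*, *noah-1*, *ssp-16* and *linc-22* are lower in every adult library.

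Among genes with at least 10 CPM in the higher stage and no overlap of libraries, the limits for naming, the other largest increases were at genes with few small RNAs at L4. Small RNAs of *K03D3.2* were at 0.477, 0.191, 1.199 and 0 CPM at L4 and 19.8, 18.9, 21.01 and 16.97 CPM in adults, a change of 5.21 (SE 0.33, edgeR adjusted p = 3.52e-08). Those of *ule-3*, a gene of the uterine lumen, were at 0.597, 0.574, 0.685 and 0.224 CPM and then 10.2, 12.9, 18.1 and 19.3 CPM, a change of 4.71 (SE 0.25). At such levels the L4 value rests on few counts. *C31G12.1*, *ztf-25*, a predicted zinc finger gene, *K01G12.3*, *F14D7.2* and the pseudogene WBGene00044976 changed by 4.498 to 4.667. Among genes with many small RNAs, the pseudogene WBGene00019517 (chrIV:6086350-6089404) was at 199.5, 179.0, 186.8 and 214.6 CPM at L4 and 3284, 3042, 3360 and 3057 CPM in adults, a change of 4.03 (SE 0.08, edgeR adjusted p = 3.1e-11). Its 4 adult libraries lay within a narrow range, far above the L4 libraries.

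Under the same limits, cuticle genes were among the largest decreases. Of 117 collagen genes tested, small RNAs fell for 73 (62.4%) and rose for 20 (17.1%), beside 29.5% and 25.9% of all genes. The median was -1.47, and under the mapped-read scale the counts were 51 and 29. Small RNAs of *sqt-1*, a collagen that shapes the body, were at 17.2, 7.47, 28.3 and 26.4 CPM at L4 and 0.398, 1.30, 0.743 and 0.110 CPM in adults. The lowest L4 library, CSR-1B replicate 2, was still above every adult library. The change was -4.93 (SE 0.44, edgeR adjusted p = 5.9e-07). Small RNAs of the body-shape collagens *rol-8* and *bli-1* changed by -4.90 (SE 0.24) and -4.96 (SE 0.31), and those of *col-175* by -4.79 (SE 0.39). Collagens that rose had other members at the top, with *col-178* at 3.82, 1.72, 1.37 and 1.34 CPM at L4 and 24.8, 34.02, 47.6 and 48.5 CPM in adults, a change of 4.02 (SE 0.28). *col-119*, *col-8* and *col-106* changed by 3.98, 3.97 and 3.96. The collagens as a class were thus not lower throughout, and their summed share of counts went only from 0.327% to 0.335% at L4 to 0.270% to 0.294% in adults.

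Of 39 genes tested of the molting cycle and hedgehog-related genes, small RNAs fell for 27 (69.2%) and rose for 4 (10.3%). These shares stand beside 29.5% and 25.9% of all genes, and the median was -1.94. Small RNAs of *qua-1*, a hedgehog-related protein needed for molting, were at 9.07, 4.21, 17.8 and 15.0 CPM at L4 and 0.398, 0.354, 0.318 and 0.219 CPM in adults, a change of -5.07 (SE 0.37, edgeR adjusted p = 1.28e-07). Those of *noah-1*, a zona pellucida domain protein of the larval apical matrix, were at 39.6, 24.1, 49.5 and 51.7 CPM and then 1.59, 3.07, 3.93 and 4.27 CPM. In both genes CSR-1B L4 replicate 2 was the lowest L4 library. Those of *mlt-11*, a protease inhibitor of molting, changed by -2.37 and those of *lpr-3*, a lipocalin-related matrix protein, by -4.62. The 4 that rose, *grl-26*, *grd-11*, *mlt-2* and *grd-3*, had adult means of only 2.24 to 5.88 CPM. The counting used no strand option, so sense fragments of abundant mRNAs and antisense small RNAs cannot be told apart. In wild-type L4 animals the mRNA of *rol-8*, *sqt-1*, *col-175*, *bli-1*, *lpr-3* and *qua-1* was at 760, 692, 520, 205, 189 and 187 FPKM, a count of mRNA fragments scaled to the gene's length and the library's depth, against a median of 3.12 over all protein-coding genes whose small RNAs fell. The part of such fragments in the decrease was not tested. The other strong decreases included *best-6*, a bestrophin family gene with 0.465 FPKM, from 10.1, 14.2, 11.1 and 11.4 CPM to 0.895, 0.354, 0.318 and 0.328 CPM, a change of -4.54 (SE 0.28).

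Sperm genes had lower small RNA levels in adults. Of 55 spermatogenesis genes tested, small RNAs fell for 37 (67.3%) and rose for none, beside 29.5% and 25.9% of all genes. The median was -1.37, and under the mapped-read scale 16 fell and 6 rose with the median still below 0, at -0.45. Small RNAs of *ssp-16*, a sperm-specific protein of the major sperm protein type, were at 185.3, 186.1, 222.2 and 227.8 CPM at L4 and 31.5, 31.5, 17.3 and 19.8 CPM in adults, a change of -3.06 (SE 0.18, edgeR adjusted p = 1.86e-08). Those of *spe-46* and *spe-19*, needed for sperm maturation, changed by -3.22 (SE 0.17) and -2.64 (SE 0.24). The sperm phosphatases *gsp-3* and *gsp-4* changed by -1.37 (SE 0.19) and -1.31 (SE 0.27), and the adult libraries were below the L4 libraries in both, but both calls were lost under the total count (-0.83 and -0.79) and the mapped reads (-0.47 and -0.42). The sperm chromatin genes *spch-1*, *spch-2* and *spch-3* were not called under TMM, with changes of 0.55, 0.78 and 0.58. Their changes were above the 2-fold minimum under the total count (1.08, 1.31 and 1.12) and the mapped reads (1.445, 1.68 and 1.48).

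The 31 major sperm protein genes, whose products move and signal for the sperm, all had changes below 0, between -1.64 and -0.55. Small RNAs fell for 21 of them (67.7%) and rose for none, beside 29.5% and 25.9% of all genes, with a median of -1.19. The number that fell depends on the setting, with 17 under DESeq2's size factors, 1 under the total count and 0 under the mapped reads. It was 12 to 25 when 1 library was left out. The median under mapped reads was -0.30. Small RNAs of *msp-56* were at 19.7, 18.4, 26.4 and 26.2 CPM at L4 and 11.1, 10.5, 6.05 and 6.68 CPM in adults, a change of -1.40 (SE 0.21, edgeR adjusted p = 5.19e-05). Copies of this family are near-identical, so values of single genes are uncertain.

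**Figure D3:**
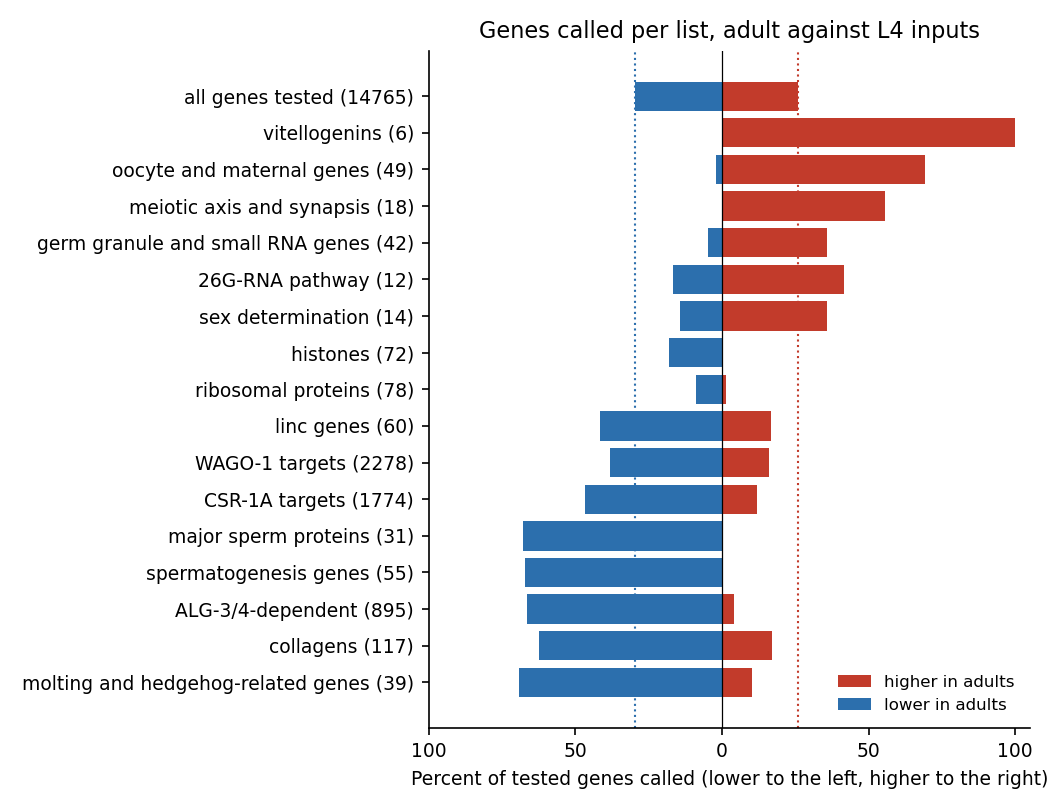
Percent of the tested genes of each list whose small RNAs rose (right) or fell (left) in adults, with the number tested in brackets and dotted lines at the values for all genes (25.9% and 29.5%). Vitellogenin and meiotic genes extend to the right only and oocyte genes nearly so, while sperm, molting and collagen genes extend mainly to the left.

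Of 12 genes listed for the 26G-RNA pathway, small RNAs rose for 5 (41.7%) and fell for 2 (16.7%), beside 25.9% and 29.5% of all genes. Small RNAs of *rrf-3*, the polymerase that makes 26G-RNAs, were at 28.1, 31.8, 25.5 and 22.6 CPM at L4 and 65.0, 66.5, 74.0 and 73.0 CPM in adults, a change of 1.36 (SE 0.10, edgeR adjusted p = 1.46e-07). Those of *ergo-1*, the Argonaute of 26G-RNAs in oocytes and embryos, changed by 1.19 (SE 0.09), those of *eri-9* by 2.33 (SE 0.15), those of the exonuclease *eri-1* by 1.16 and those of the helicase *drh-3* by 1.06. The 2 of this list that fell were the spermatogenic Argonautes, and *eri-6*, a helicase gene of the pathway that the list did not hold, fell too and is described with the abundant loci. Small RNAs of *alg-3* were at 26.3, 28.7, 33.8 and 36.7 CPM at L4 and 9.05, 8.51, 4.99 and 6.57 CPM in adults, a change of -2.09 (SE 0.18), and those of *alg-4* changed by -2.03 (SE 0.27). *dcr-1*, *eri-3*, *rde-4* and *gtsf-1* had changes of 0.88, 0.77, 0.43 and 0.75 and *eri-5* one of -0.07, none of them called under TMM. The number of the 12 genes that rose was 8 under the total count and 9 under the mapped reads.

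Of 42 germ granule and small RNA genes, small RNAs rose for 15 (35.7%) and fell for 2 (4.76%), beside 25.9% and 29.5% of all genes. The number that rose was 38 under the mapped-read scale. Those of *smut-1*, a helicase of the Mutator type, were at 8.12, 9.95, 8.91 and 9.40 CPM at L4 and 38.9, 37.5, 43.1 and 40.6 CPM in adults, a change of 2.15 (SE 0.09, edgeR adjusted p = 2.18e-09). Those of the nucleotidyltransferase *mut-2*, the P granule gene *pgl-2* and the Argonaute *rde-1* changed by 2.06, 1.78 and 1.69. The 2 that fell, *wago-10* and *wago-5*, are WAGO Argonautes and changed by -2.81 (SE 0.20) and -1.89 (SE 0.13), the latter at -0.99 and not called under the mapped reads. *wago-1* rose by 1.27 (SE 0.09). *csr-1* itself, at 156.3, 152.9, 134.7 and 134.5 CPM at L4 and 263.6, 274.0, 292.4 and 297.1 CPM in adults, had a change of 0.96 (SE 0.08, edgeR adjusted p = 3.04e-07), just under the 2-fold minimum. Its change was above that minimum with DESeq2's size factors, the total count and the mapped reads, at 1.08, 1.49 and 1.86. *morc-1*, a chromatin regulator, had a change of 0.55 (SE 0.08), and *R05D7.2*, *F44D12.6* and *Y41C4A.7*, genes named in the study, fell with changes of -3.38, -2.07 and -1.93.

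Lists of small RNA targets were made from libraries outside this comparison. Of 2278 WAGO-1 targets tested, from IPs at L4, small RNAs fell for 871 and rose for 364, with a median of -0.71 that turned to 0.18 under the mapped-read scale. Of 1774 CSR-1A targets, 830 fell and 212 rose, with a median of -0.85 that turned to 0.05 on that scale. The ALG-3/4-dependent list held 895 genes with fewer small RNAs in *alg-3/4* mutant than in CSR-1A inputs at L4. Of these, 594 fell and 37 rose, with a median of -1.37 that stayed below 0 under every scaling. The *alg-3/4* inputs had Spearman's rho over genes of 0.804, 0.765 and 0.769 with the mean of the L4 inputs here. With the mean of the adult inputs it was 0.797, 0.75 and 0.769. The CSR-1A inputs had 0.868 and 0.869 with the L4 mean, and 0.773 and 0.775 with the adult mean. Whether a difference in stage entered this list was not tested. All of these lists required a minimum level at L4, so genes high at that stage were more likely to enter them, and their counts are a description beside 29.5% of all genes.

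Noncoding loci held some of the most counted small RNAs. Outside the rRNA genes, no gene had more counts at L4 than *linc-22* (X), a long intergenic noncoding RNA named here after its values were seen, where levels are per gene and not per length. It was at 55350, 55730, 42720 and 44970 CPM at L4 and fell to 10330, 9884, 9410 and 9223 CPM in adults. The change was -2.35 (SE 0.06, edgeR adjusted p = 1.38e-10), and every adult library was below every L4 library. Of 60 linc genes tested, small RNAs fell for 25 (41.7%) and rose for 10 (16.7%), beside 29.5% and 25.9% of all genes. Their median of -0.74 turned to 0.16 under the mapped-read scale. *linc-63*, at 306.8, 303.6, 283.0 and 277.7 CPM at L4 and 1470, 1347, 1504 and 1505 CPM in adults, moved the other way, by 2.31 (SE 0.07). *linc-59* fell by 2.86 on the log2 scale, but all of its exons lie within another gene of the same strand, as do those of *linc-111*.

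Other abundant loci were chosen in the same way. Small RNAs of *eri-6* were at 8944, 9516, 7907 and 8087 CPM at L4 and 3796, 3479, 3371 and 3268 CPM in adults, a change of -1.31 (SE 0.06), whose call was lost at -0.78 under the total count and -0.41 under the mapped reads. The pseudogene WBGene00077437 changed by -2.05 (SE 0.08). *W09C5.12* and *linc-29*, with changes of -0.90 and -0.58, were under the 2-fold minimum, and went to -0.0025 and 0.32 under the mapped reads. The pseudogene WBGene00004677, with a change of 0.19 (SE 0.23), was not called under TMM, and went to 1.085 under the mapped reads. The ncRNA genes *M163.12* and *W01D2.8* changed by -3.26 (SE 0.12) and -2.86 (SE 0.12), the latter from 2629, 2467, 2037 and 2126 CPM to 284.5, 306.3, 296.6 and 387.6 CPM. Over the whole class, small RNAs fell for 428 (52.6%) and rose for 128 (15.7%) of 813 pseudogenes tested. They fell for 242 (44.2%) and rose for none of 548 tRNA genes, beside 29.5% lower and 25.9% higher over all genes. Under the mapped reads the pseudogene counts turned, to 142 lower and 202 higher, and 10 tRNA genes were lower and 6 higher.

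**Figure D4:**
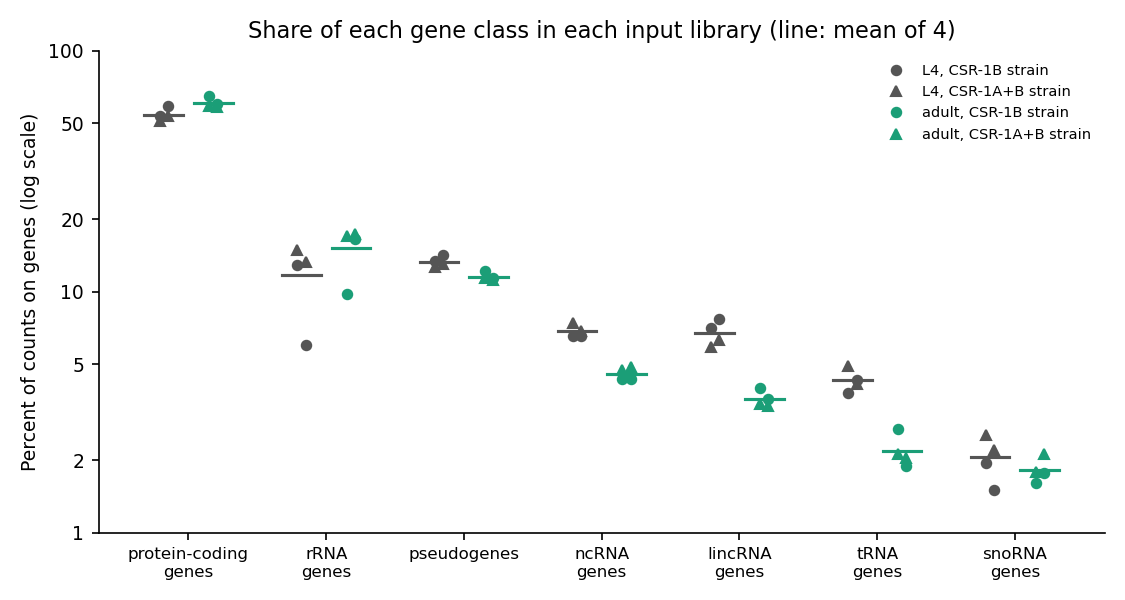
Share of all counts on genes (percent, log axis) taken by 7 classes of gene in the 8 input libraries, where a point is a library, its shape the strain, its colour the stage, and a line the mean of 4. The lincRNA, tRNA and ncRNA shares are lower in every adult library than in any L4 library, and the rRNA share is low in 1 CSR-1B library of each stage.

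The shares of counts moved with these genes. lincRNA genes took 7.08%, 7.72%, 5.88% and 6.34% of counts at L4 and 3.98%, 3.58%, 3.43% and 3.37% in adults. The groups did not overlap, and the exact two-sided permutation p of 0.0286 is the smallest that 4 against 4 libraries allow (adjusted p = 0.0514 over 9 classes). *linc-22* alone, at a mean of 49690 CPM at L4 and 9712 CPM in adults, carried much of this share and of its decrease. Whether the groups stay apart without *linc-22* was not tested. The share of tRNA genes went from 4.29% ± 0.48 to 2.19% ± 0.34 (SD, n = 4), that of ncRNA genes from 6.85% ± 0.39 to 4.57% ± 0.27, that of pseudogenes from 13.3% ± 0.69 to 11.6% ± 0.45 and that of antisense RNA genes from 0.230% ± 0.021 to 0.156% ± 0.016, each with the same exact permutation p. Protein-coding genes took 54.3% ± 3.3 at L4 and 60.5% ± 3.0 in adults, where 1 L4 library, CSR-1B replicate 2, overlapped the adults (exact permutation p = 0.0857). The shares of rRNA, snRNA and snoRNA genes overlapped between the stages.

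Small RNAs of genes on the X chromosome, which is silent in much of the germline and active in oocytes, fell for 763 (38.3%) and rose for 386 (19.4%) of 1990 tested, beside 29.5% and 25.9% of all genes. Their median of -0.68 turned to 0.24 under the mapped-read scale, as the median of all genes turned to 0.76. X-linked genes were nevertheless among the largest changes in both directions, with *T22B2.5* at 15.6, 14.4, 9.77 and 9.17 CPM at L4 and 255.7, 233.1, 248.6 and 217.0 CPM in adults, a change of 4.28 (SE 0.13), and *col-170* with one of -4.51 (SE 0.28). The X chromosome held 12.4% to 13.6% of all counts at L4 and 8.95% to 10.2% in adults, and on this chromosome *linc-22* had the most counts at L4. The fall of *linc-22*, from a mean of 49690 to 9712 CPM, made up much of this loss of share. Whether the X share differs between the stages without *linc-22* was not tested.

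Most histone and ribosomal protein genes were not called. Of 72 histone genes, small RNAs fell for 13 (18.1%) and rose for none, both below the 29.5% and 25.9% of all genes. The median of -0.37 turned to 0.16 and 0.52 under the total count and the mapped reads. *his-70*, a histone H3 variant gene, had the largest decrease, from 25.1, 28.9, 41.6 and 38.3 CPM to 6.17, 7.68, 5.31 and 6.35 CPM. Of 78 ribosomal protein genes, 7 (8.97%) fell and 1 (1.28%), *rpl-24.2*, rose, again below the shares of all genes. Their median of -0.49 turned to 0.05 and 0.41 on the same scales. Of 9 markers of muscle, gut and neuron, small RNAs rose for 2 (22.2%) and fell for 1 (11.1%), beside 25.9% and 29.5% of all genes. The other 6 were not called, and only 3 of the 9 changes were above 0, with a median of -0.32. The synaptic genes *rab-3* and *unc-17* rose by 2.23 (SE 0.17) and 2.11 (SE 0.15), and the gut esterase *ges-1* fell from 4.12 ± 1.35 to 1.86 ± 0.10 CPM (SD, n = 4). The summed share of these markers was 0.0303% to 0.0545% at L4 and 0.0459% to 0.0554% in adults, so the stages overlapped.

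The next question was whether the change from L4 to adult was the same in the strain without CSR-1A as in the strain with both isoforms. Among genes called for stage over both strains, the sign was the same in each strain for 99.96%. These genes were chosen for a 2-fold change over both strains in the same libraries. That choice favours equal signs, so this value does not answer the question. By edgeR's interaction test, the size differed for 951 of 15230 genes tested (6.24%), and under TMM 198 of the 951 had opposite directions in the strains. The CSR-1B strain was above for 730 and below for 221. This split depends on the setting, with the CSR-1B strain above for 641 of 1097 with DESeq2's size factors, 909 of 1762 with no filter, 1055 of 1155 with the mapped reads and 332 of 656 without CSR-1B L4 replicate 1. The count depends on single libraries, at 469 without CSR-1A+B L4 replicate 1, 531 without CSR-1B adult replicate 1, 374 without CSR-1A+B adult replicate 1, 495 without CSR-1A+B adult replicate 2 and 595 without the 2 CSR-1B libraries of low rRNA share. It was 226 by DESeq2.

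All 3 sperm chromatin genes were among them. Small RNAs of *spch-1* were at 27.3 and 31.2 CPM in the CSR-1B strain at L4 and 88.8 and 80.0 CPM in its adults, but at 56.9 and 61.5 CPM in the CSR-1A+B strain at L4 and 40.95 and 47.7 CPM in its adults. The fall in the CSR-1A+B strain was read from TMM values. The total count and the mapped reads raise every change by about 0.53 and 0.895, so its direction depends on the scaling. The difference between the strains' changes was 1.95 (edgeR adjusted p = 0.000154) and was called under 18 of 18 alternatives. *spch-3* and *spch-2* gave 1.88 and 1.79, also called under each of 18. *alg-4* fell in both strains, from 18.5 and 22.2 to 9.35 and 7.21 CPM in the CSR-1B strain and from 30.2 and 34.5 to 3.61 and 5.04 CPM in the other, a difference of 1.62 (edgeR adjusted p = 0.00394), and was called under 18 of 18.

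The same direction was found across sperm lists. Of 31 major sperm protein genes, 22 had an interaction, each with the CSR-1B strain above, though only 1 by DESeq2 and 4 to 15 when 1 library was left out. Their summed share of counts was 0.0228% and 0.0253% in the CSR-1B strain at L4 and 0.0245% and 0.0229% in its adults, so the stages overlapped there. In the CSR-1A+B strain it was 0.0328% and 0.0366% at L4 and 0.0128% and 0.0155% in adults. Of the ALG-3/4-dependent genes, 296 of 895 had an interaction, 291 with the CSR-1B strain above, with 83 by DESeq2 and 153 to 239 without 1 library. Over all genes 951 of 15230 (6.24%) had an interaction, 730 with the CSR-1B strain above. The lower L4 level in the CSR-1B strain and the lower adult level in the CSR-1A+B strain both enter these values.

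**Figure D5:**
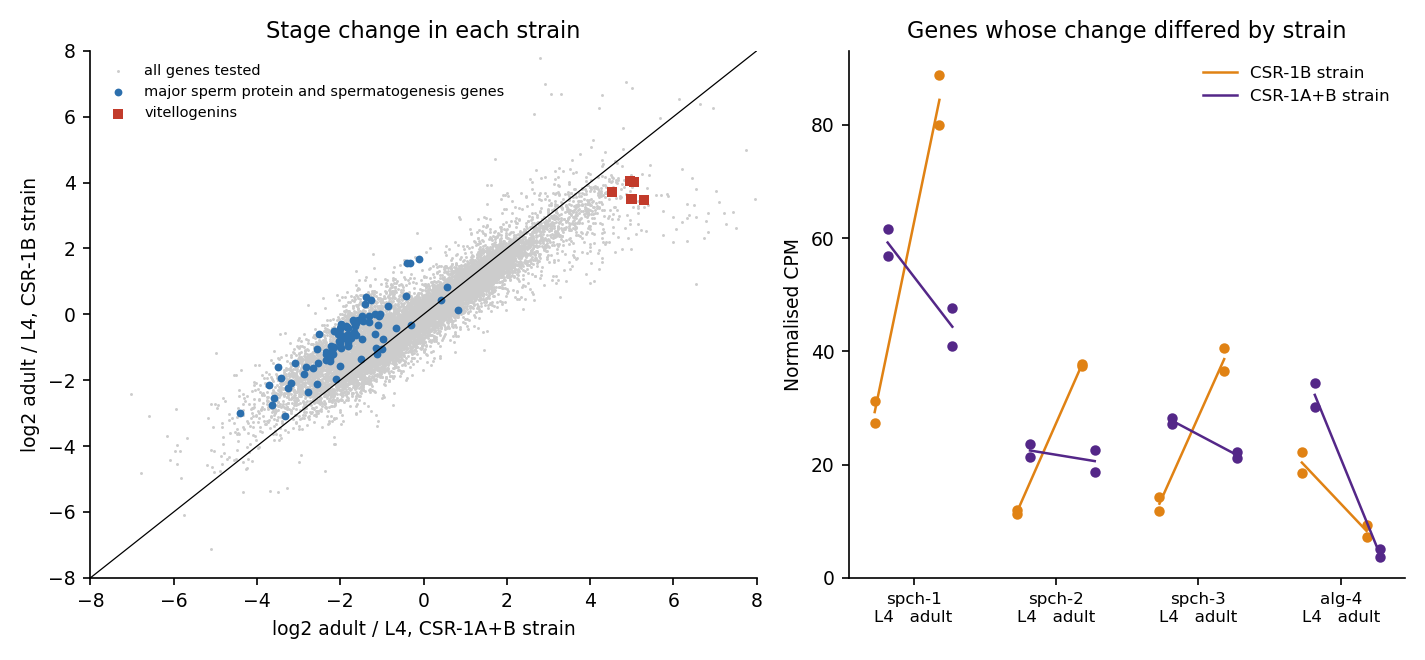
Left, change from L4 to adult (log2) of each gene in the CSR-1A+B strain (horizontal) and the CSR-1B strain (vertical), with sperm and vitellogenin genes marked and a line of equal change. Right, TMM-normalised CPM of *spch-1*, *spch-2*, *spch-3* and *alg-4*, where a point is a library and lines join the means. The *spch* genes are higher in adults of the CSR-1B strain. Except for *spch-2*, whose libraries overlap, they are lower in adults of the CSR-1A+B strain, a direction that depends on the scaling.

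Other classes moved with this difference. tRNA genes had 127 interactions of 548, 122 with the CSR-1B strain above, beside 6.24% of all genes. This tRNA count was made in the main fit only. The tRNA gene WBGene00023162 had the largest interaction of the named genes, at 2.51 (edgeR adjusted p = 0.000681). It was at 9.79 and 6.51 CPM in the CSR-1B strain at L4 and 15.8 and 10.6 CPM in its adults, against 28.4 and 27.3 and then 8.59 and 6.79 CPM in the other. Of the 6 vitellogenin genes, 4 had a smaller increase in the CSR-1B strain, led by *vit-5* at -1.81. *pck-3*, a phosphoenolpyruvate carboxykinase gene, and *bli-2*, a cuticle collagen, gave 2.14 and 2.39, and the pseudogene WBGene00235338 gave -2.27. The cuticle genes *sqt-1* and *qua-1* were lower in both CSR-1B L4 libraries than in both CSR-1A+B L4 libraries, and yolk genes were lower in both CSR-1B adult libraries. Whether the strains were collected at the same point of each stage was not tested.

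The IP libraries of the same strains and stages, with the FLAG-tagged CSR-1 pulled down, gave a companion contrast on the same lysates. They held 570862 counts in CSR-1B L4 replicate 1 and 4814607 to 17342341 in the other 7. Small RNAs were higher in adult IPs for 2741 genes (20.5%) and lower for 3520 (26.3%) of 13370 tested, by the same edgeR test, and for 3001 and 3824 genes without that shallow library. Of 3595 genes that rose in the inputs and were tested in the IPs, 1806 rose and 10 fell there, and of 3570 that fell in the inputs, 2428 fell and 17 rose. In the IPs small RNAs fell for all 31 major sperm protein genes with a median of -4.07, beside -1.19 in the inputs. *spch-1*, not called in the inputs under TMM, changed by -3.85 in the IPs (edgeR adjusted p = 1.72e-06). The 6 vitellogenin genes rose in the IPs with a median of 2.57, beside 4.22 in the inputs, and *csr-1* changed by -0.55 in the IPs beside 0.96 in the inputs. The difference between IP and input contrasts was not tested.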

How the data were processed

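Per the paper's methods, FASTX-Toolkit removed adapters and filtered the small RNA reads, Bowtie2 2.2.2 placed them on genome release WS258, and featureCounts 1.5.1 counted them on exons. The options took the largest overlap and shared reads among genes, and none was for strand. What the authors deposited are therefore expected counts, with no scaling. The wild-type L4 mRNA counts were deposited by the authors after HISAT2 and featureCounts, and were turned here into FPKM.

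Rounded expected counts went into edgeR 4.0.16 in R 4.3.3, with filterByExpr, TMM factors, strain as a covariate, the quasi-likelihood test and p-values adjusted by Benjamini and Hochberg. Counts on genes of 5343284 to 10413430 per library set the precision. SE is the change divided by the square root of F. DESeq2 1.42.0 was an alternative. Shares were compared by exact permutation over 70 splits, and figures drawn with matplotlib 3.10.9. A call needs an adjusted p of at most 0.05 and at least 2-fold change, and an interaction only the former. Sequences come from RefSeq's genome and gene starts from the annotation of the same build.

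The members and gene lists were chosen with earlier results of these data known. Named genes are those the study names, the 8 largest called changes per direction without overlap and with at least 10 CPM in the higher stage, up to 4 per list and direction, all members of small families, and the 4 largest interactions. Target lists needed at least 2-fold enrichment (or loss in *alg-3/4* animals) and 10 RPM. Alternatives were other scalings, filters, DESeq2, unrounded counts, stage alone, a replicate block, all inputs in one fit, other denominators and each library left out. Those added after seeing the data were a crossed block, both CSR-1B libraries of low rRNA share left out, and overlapping genes left out. microRNAs and 21U-RNAs were not analysed here.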

Additional observations from a re-analysis of the deposited data

Results flagged for a closer look

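Within a stage, 1 of the 4 libraries stood apart from the other 3 by Dixon's test for a few values, a test that flags about 1 in 20 groups by chance. CSR-1B L4 replicate 1 was high for *vit-2* (59.43 CPM), *vit-3* (36.28 CPM), *vit-4* (37.12 CPM) and *col-178* (3.819 CPM). CSR-1A+B L4 replicate 1 was low for the ncRNA gene *CD4.10* (4.797 CPM). Among adults, CSR-1B replicate 1 was low for the share of counts on rRNA genes (9.744%) and high for *best-6* (0.8951 CPM) and *rpl-41.1* (5.371 CPM). CSR-1B adult replicate 2 was high for *coh-4* (53.16 CPM) and CSR-1A+B adult replicate 1 for *syp-4* (69.17 CPM).

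The change from L4 to adult differed between the strains for 951 genes by edgeR's interaction test. Among the named genes, values here are the change in the CSR-1B strain less that in the CSR-1A+B strain (log2). The CSR-1B strain was above for the sperm genes *spch-1* (1.948), *spch-3* (1.881), *spch-2* (1.791), *ssp-32* (1.569), *gsp-4* (1.459), *msp-56* (1.222), *msp-38* (1.134), *msp-32* (1.095) and *ssp-16* (1.037), and for the Argonautes *alg-4* (1.622) and *alg-3* (0.9634). It was above too for the tRNA gene WBGene00023162 (2.511), *bli-2* (2.386), *pck-3* (2.143), *F44D12.6* (1.934), the pseudogenes WBGene00019879 (1.512) and WBGene00022578 (1.185), *rpl-42* (1.393), *linc-41* (1.169), *linc-66* (0.9806) and *his-70* (0.8167). It was below for the vitellogenins *vit-5* (-1.809), *vit-3* (-1.505), *vit-4* (-1.496) and *vit-6* (-1.034), the collagens *col-178* (-1.856) and *col-119* (-1.772), the pseudogenes WBGene00235338 (-2.269) and WBGene00007667 (-0.6684), *linc-111* (-0.9606) and the ncRNA gene *T05E12.10* (-0.7387). Over the alternatives, *alg-3* was called in 11 of 18, *gsp-4* in 13, *bli-2* in 12, *vit-3* and *vit-4* in 11 and *vit-5* in 18.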

How the results depend on the processing

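Scaling moved the lower calls most. Of genes in adult inputs, 2462 were lower under the total count, and 6694 were higher and 1405 lower under the mapped reads. The lower calls of the target lists went with it, to 389 WAGO-1 targets and 392 ALG-3/4-dependent genes under the total count, and to 171, 384 CSR-1A targets and 248 under the mapped reads. A stricter filter, which tests fewer genes, gave 2382 higher and 2483 lower and 384 CSR-1A targets lower, and no fold minimum gave 5886 and 6535. The split of calls, 46.8% higher with TMM, was 51.9% with unrounded counts, 54.6% with no filter and 55.2% with DESeq2. Leaving out 1 library gave 3817 to 4524 genes higher and 3979 to 4666 lower in the inputs, and 374 to 951 interactions. Interactions numbered 1762 without a filter, 226 by DESeq2 and 595 without the CSR-1B libraries of low rRNA share. The cause was not tested for any of these beyond the number of genes or libraries.

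Of 125 named genes under 22 alternatives, 18 lost the call at least once and 4 changed sign, none of which was called. *eri-5*, near 0, was at 0.0444 with DESeq2's size factors, 0.46 with the total count, 0.83 with mapped reads, 0.16 with no filter, 0.15 by DESeq2, 0.0314 unrounded, 0.0029 with stage alone, 0.0449 without the low-rRNA libraries, and at 0.15, 0.06 and 0.07 without CSR-1B L4 replicate 1, CSR-1B L4 replicate 2 and CSR-1B adult replicate 2, with -0.16 the lowest value without 1 library. With mapped reads WBGene00023162 was at 0.25, *pck-3* at 0.0527 and *linc-29* at 0.32.

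Of the shares of counts, in percentage points adult less L4, mapped reads as the denominator turned pseudogenes to 0.721 and snoRNA genes to 0.126, and snRNA genes turned to -0.0057 without CSR-1A+B adult replicate 2, in a range up to 0.0228 without 1 library. With rRNA genes out of the denominator 6 classes had an adjusted exact permutation p of 0.0381, at 9.80 for protein-coding genes, -1.44 for pseudogenes, -2.38 for ncRNA, -3.41 for lincRNA, -0.0767 for antisense RNA and -2.30 for tRNA genes. Each was at the smallest exact permutation p possible, 0.0286. The adjusted value moved from 0.0514 because rRNA genes left the classes tested and protein-coding genes reached that p, so for the others the evidence was unchanged.

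Replicate numbers were not taken as pairs in the main fit. Deviations of same-numbered libraries correlated over genes at -0.156 in the CSR-1B strain and 0.024 in the other. With 2 libraries per strain and stage this is a single comparison per strain, which cannot settle whether samples were paired. With the replicate number as a block, 3951 genes were higher and 4494 lower in the inputs, 864, 829 and 589 members of the WAGO-1, CSR-1A and ALG-3/4 lists were lower, and 2810 and 3505 genes were called in the IPs. With the numbers crossed in the CSR-1B strain, 3952 were higher and 4508 lower.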

Other observations

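The small RNAs of genes that rose and fell differed in the level of their mRNA in wild-type L4 animals, which were not part of the stage comparison. The median was 8.90 FPKM over 3636 protein-coding genes that rose, 3.12 FPKM over 3206 that fell and 13.6 FPKM over 5317 not called. The yolk genes *vit-3*, *vit-4* and *vit-5* had 0.539, 0.0575 and 0.0302 FPKM at L4, while *vit-6* had 24.4 FPKM.

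Genes that rose and fell were alike in base content, with a median GC content of 40.8% and 41.1% and cytosine at 20.2% and 20.1% of sense exons. The median exonic length was 1444 bases for those that rose and 1125 for those that fell.

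Genes of mitochondrial DNA, whose small RNAs were read as counts without strand, fell for 21 and rose for none of 36 tested, with a median of -1.17, beside 29.5% lower and 25.9% higher over all genes. Under the total count 8 were lower, and under the mapped reads 2 were lower and 2 higher with a median of -0.27. These genes took 0.654% to 0.940% of counts at L4 and 0.531% to 0.656% in adults.

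The 15 other L4 input libraries of the series with a complete table were compared with the mean of each stage over genes. Wild-type aHA input replicate 2, whose table was incomplete, was left out. Spearman's rho was 0.765 to 0.869 with the L4 mean and 0.693 to 0.797 with the adult mean, and 14 of 15 were closer to L4, as a description over genes. The exception was *alg-3/4* input replicate 3, at 0.769 with both means. The other *alg-3/4* inputs were nearly tied, at 0.804 and 0.797 in replicate 1 and 0.765 and 0.75 in replicate 2.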
